A study of Mus musculus with 4 samples.

Results

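Axon guidance genes were followed in cultured mouse cortical neurons in which calmodulin, the main intracellular calcium sensor protein, was knocked down with shRNAs. The genes were 58 listed ligands and receptors of the Slit, netrin, semaphorin, ephrin, Robo, plexin, neuropilin, Dcc, Unc5 and Eph families. They were listed by symbol with earlier results of these data known, and the list leaves out some genes of these families. A gene counted as measured when at least 1 array probe set carried its symbol and no other. This held for 56 of the 58, among 19938 measured genes in all. Ntng2 and Ephb2 had no such probe set and have no value here.

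The cultures came from newborn pups (P0) of a mixed SV129 x C57BL/6 strain that were either Syt1 deficient or wild type, and the labels do not say which pups gave which array. Dissociated neurons grew in medium with B27, serum and Ara-C, were infected with lentivirus at 5 days in vitro, and were lysed for RNA at 14 to 15 days in vitro. The knockdown group (n = 2) received the calmodulin shRNAs, the rescue group (n = 2) received those shRNAs plus wild-type calmodulin made resistant to them, and the reference was infected with control virus. The rescue group therefore differs from control by both the shRNAs and the added calmodulin. Total RNA was hybridised to Affymetrix mouse Gene ST arrays in 2 repeats. Each deposited value is a linear ratio of a test array to the control array of its repeat, taken here as log2, so that 0 is equality with control. Knockdown and rescue of a repeat share 1 control array, and the control arrays themselves were not analysed here. The labels do not state whether the repeats were separate cultures. The p-values therefore reflect spread among these arrays alone, and that spread may be technical.

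Growing axons are steered by proteins that attract or repel the growth cone. Slits act through Robo receptors, netrins through Dcc and Unc5 receptors, semaphorins through plexins with or without a neuropilin, and ephrins through Eph receptor tyrosine kinases, where the membrane-bound ligand can also signal backwards into its own cell. In cortical neurons that have already grown out, the same families are known for roles in dendrite branching, synapse formation and synapse remodelling.

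Most of the listed guidance genes lay below control in the knockdown on the mean, where 49.6% of all genes did. The median of the listed genes in the rescue lay near control. The other 13 measured genes of the same families, not on the list, had a knockdown median above control, at 0.18. In the knockdown, 3 members fell: the repellent ligand Slit1 (2.55-fold), the ephrin-A receptor Epha3 (2.46-fold) and the membrane semaphorin Sema4a (1.84-fold). By the same rule 0.171% of all genes were lower. No member passed in the rescue against control. Between knockdown and rescue, Sema4a alone of the 56 passed, 2.90-fold lower in the knockdown, with an adjusted p (0.0499) at the edge of the threshold. That rule called 0.0301% of all genes lower. With the repeat as a block, Epha3, Sema3a and Sema4a were lower in the knockdown than in the rescue, as were 0.431% of all genes. Against control in the knockdown, 24 members passed with the block, which called 3.48% of all genes lower and 1.91% higher. Against control, the block leaves the spread between repeats, control arrays included, out of the error.

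To show the start-site sequence of the genes that these results turn on, the 250 bases upstream of a RefSeq transcription start (GRCm38.p6) are printed for Epha3 and Sema4a, 5′ to 3′ on the gene's strand, with CpG dinucleotides in capitals. The Epha3 window is chr16:63864176-63864425 on the minus strand. The Sema4a window, at the most upstream of its 4 listed starts, is chr3:88461183-88461432 on the minus strand. Slit1 is named only.
Epha3: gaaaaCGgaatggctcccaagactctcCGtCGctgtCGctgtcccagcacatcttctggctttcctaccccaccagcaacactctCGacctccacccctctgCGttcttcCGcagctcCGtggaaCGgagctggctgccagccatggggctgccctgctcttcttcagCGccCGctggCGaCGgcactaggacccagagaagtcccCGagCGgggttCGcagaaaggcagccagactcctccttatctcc
Sema4a: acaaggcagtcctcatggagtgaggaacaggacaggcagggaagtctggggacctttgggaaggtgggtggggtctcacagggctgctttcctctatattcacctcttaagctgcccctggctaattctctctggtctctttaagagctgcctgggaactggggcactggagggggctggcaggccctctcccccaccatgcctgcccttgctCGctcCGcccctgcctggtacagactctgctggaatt
The windows differ in CpG content, with 16 CpG and 62.8% G plus C for Epha3 and 2 CpG and 59.6% for Sema4a. The median window of the members holds 16 CpG, against 6 over all 32851 windows of this length. Neither printed window holds any of 4 motifs searched on both strands: the cAMP response element TGACGTCA, its partial form TGACG (which lies within the full element), the AP-1 site TGANTCA and the E-box CACGTG. Of all windows, 1.55%, 17.8%, 6.75% and 6.02% hold them, in that order. Of 64 windows of 49 members, 0.0%, 9.38%, 4.69% and 6.25% do, and no match says only that these letters are not in the window.

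**Figure D1:**
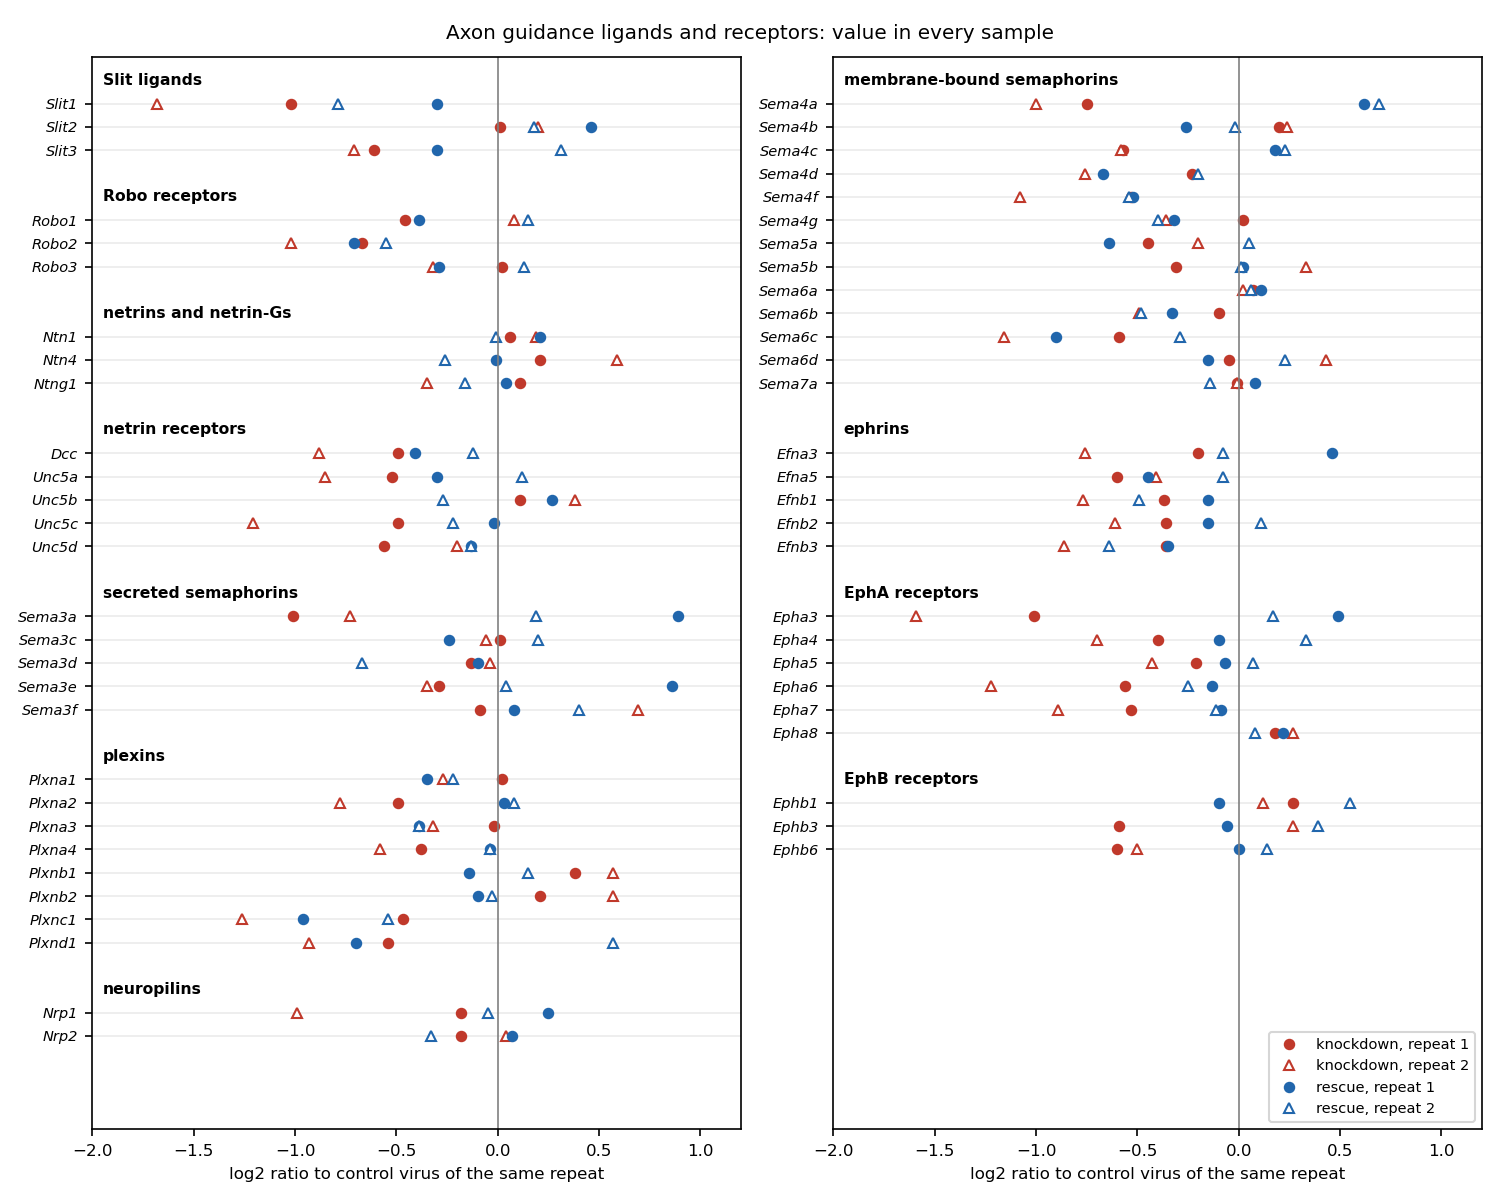
Value of each of the 56 measured members in each sample, as log2 ratio to the control array of the same repeat (horizontal axis), by family. Red is knockdown and blue is rescue, filled circles are repeat 1 and open triangles repeat 2. For Slit1, Epha3 and Sema4a both red points lie left of both blue points.

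The first comparison asked which guidance genes differ when calmodulin is knocked down. Past an adjusted p of 0.05 in limma, 3 of the 56 members (5.36%) were lower, where 0.171% of all genes were lower by the same rule, and 0 members were higher, where 0.135% of all genes were. At least 1.5-fold in both repeats, 7 members (12.5%) were lower and 0 higher, against 0.757% and 0.281% of all genes: Slit1, Slit3, Robo2, Sema3a, Sema4a, Sema6c and Epha3. At an unadjusted p under 0.05, limma called 32 members in either direction, against 16.0% of all genes. With repeat added to the model as a block, limma called 23 members lower and 1 higher, against 3.48% and 1.91% of all genes. That block takes out what the repeats differ by, the control arrays included. Its p-values against control therefore leave out spread between repeats that the group mean still carries. Nrp1, at -0.18 and -0.99, had an adjusted p of 0.033 with the block and 0.198 without it (limma). Both knockdown values were below control for 35 members (62.5%), against 31.1% of all genes, and both above for 10 (17.9%), against 30.5%. The median member stood at -0.33 and -0.42 in the knockdown repeats, and at -0.35 in the group mean, where the median of all genes was 0.00. The listed symbols do not cover their families. The other 13 measured genes of the same families had a knockdown median of 0.18, 11 of the 13 lay above control on the mean and 0 passed in limma, with or without the block. Taken with them, 45 of 69 measured family genes were below control on the mean (65.2%), with a median of -0.17.

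**Figure D2:**
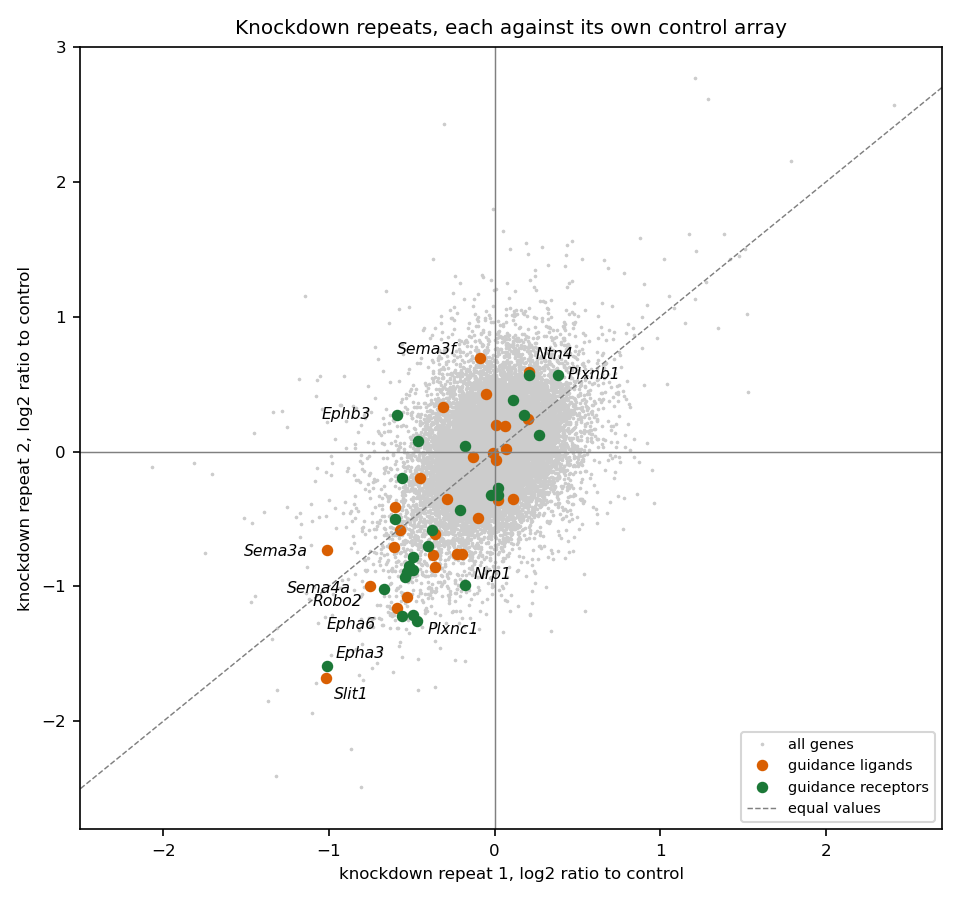
Knockdown repeat 1 (horizontal axis) against knockdown repeat 2 (vertical axis), both as log2 ratio to control, for all 19938 genes (grey), member ligands (orange) and member receptors (green). Slit1 and Epha3 are the lowest members in repeat 2, at -1.68 and -1.59, and 35 of the 56 members lie below 0 in both repeats.

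Slits are large secreted proteins that repel axons and branch dendrites. Slit1 stood at 0.494 and 0.311 of control in the knockdown repeats and at 0.813 and 0.579 in the rescue repeats. The knockdown pair lies below the rescue pair with no overlap, and all 4 values are below control. Slit1 fell by 1.35 on the log2 scale (SE 0.18, limma adjusted p = 0.0397). Slit3, at -0.61 and -0.71 in the knockdown and at -0.30 and 0.31 in the rescue, did not pass (adjusted p = 0.114, limma) except with the block (adjusted p = 0.0324). Slit2, the highest of the listed Slit and Robo genes, was at 0.01 and 0.20 in the knockdown and at 0.46 and 0.18 in the rescue, and its groups overlap.

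Robo receptors bind Slits. Robo2 was at -0.67 and -1.02 in the knockdown, and at -0.71 and -0.55 in the rescue. Its groups overlap and all 4 values are below control, unlike Epha3 and Sema4a. Its knockdown mean of -0.84 (SE 0.13) missed the threshold (limma adjusted p = 0.0548) and passed with the block (adjusted p = 0.0134). Robo1 and Robo3 had means of -0.19 and -0.15, with repeats on both sides of 0. Robo4, which is not on the list, was at 0.43 and 0.35 in the knockdown.

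Among the netrins, which attract or repel according to the receptor, Ntn4 was at 0.21 and 0.59 in the knockdown and at -0.01 and -0.26 in the rescue. Both knockdown values are above both rescue values, but the knockdown mean of 0.40 did not pass (limma adjusted p = 0.227). Ntn1 lay within 0.06 to 0.19 in the knockdown, and Ntng1, a membrane-anchored relative, had a mean of -0.12. The mean of Ntng1 joins 2 probe sets that differ in sign, at -0.15 and -0.74 for one and 0.37 and 0.05 for the other.

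Of the 5 netrin receptors, 4 were below control in both knockdown repeats, as were 31.1% of all genes, and 0 passed the test without the block. Unc5c, a receptor for repulsion, was the lowest, at -0.49 and -1.21 in the knockdown and at -0.02 and -0.22 in the rescue, so the groups do not overlap. Its knockdown mean was -0.85 (SE 0.17, limma adjusted p = 0.0893), and 0.0133 with the block. Dcc, the receptor for attraction, and Unc5a each had a knockdown mean of -0.69, and both passed with the block (adjusted p = 0.0288 and 0.0312). Unc5b, at 0.11 and 0.38, was the member of this group on the other side of control.

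Secreted class 3 semaphorins repel axons through neuropilin and plexin-A receptors. Sema3a, the best known of them, was at -1.01 and -0.73 in the knockdown and at 0.89 and 0.19 in the rescue. The groups lie on opposite sides of control, and the rescue repeats differ from each other by more than the knockdown repeats do. The knockdown mean of -0.87 (SE 0.18) did not pass (limma adjusted p = 0.0861) and did with the block (adjusted p = 0.0231). Sema3e, which signals through Plxnd1, was at -0.29 and -0.35 in the knockdown and at 0.86 and 0.04 in the rescue. Sema3f, the highest listed semaphorin on the mean (0.30), rested on repeat 2, with -0.09 and 0.69 in the knockdown and at 0.08 and 0.40 in the rescue. Sema3c and Sema3d had knockdown means of -0.03 and -0.08. The class 3 genes Sema3b and Sema3g, which are not on the list, were above control, at 0.22 and 1.27, and at 0.23 and 0.46.

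The 13 listed membrane-bound semaphorins had knockdown means from -0.88 to 0.22, with 8 of the 13 below control in both repeats (31.1% of all genes). Sema4a, known from immune cells, retina and neurons, stood at 0.593 and 0.498 of control in the knockdown repeats and at 1.54 and 1.62 in the rescue repeats. Both groups are tight, and they lie on opposite sides of control. Sema4a fell by 0.88 on the log2 scale in the knockdown (SE 0.12, limma adjusted p = 0.0415). Sema4c, a ligand of Plxnb2, had the same order at smaller size, with -0.57 and -0.58 against 0.18 and 0.23 (knockdown adjusted p = 0.0861 in limma, 0.0234 with the block). Sema4f was at -0.53 and -1.08 in the knockdown and at -0.52 and -0.54 in the rescue, so the groups overlap. Sema6c was at -0.59 and -1.16 against -0.90 and -0.29, and its groups overlap. Sema4b leaned the other way, with 0.20 and 0.24 in the knockdown and at -0.26 and -0.02 in the rescue. Sema6a and Sema7a differed from control by at most 0.14 in each of the 4 samples. The 2 probe sets of Sema6b have the same values in every sample and count as 1 measurement.

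Plexins are the signalling receptors for semaphorins. Plxna2 (-0.49 and -0.78), Plxna4 (-0.38 and -0.58), Plxna3 (-0.02 and -0.32), Plxnc1 (-0.47 and -1.26) and Plxnd1 (-0.54 and -0.93) were below control in both knockdown repeats. Plxna1 was at 0.02 and -0.27. The listed plexin-B genes, receptors for class 4 semaphorins, were above control, with Plxnb1 at 0.38 and 0.57 and Plxnb2 at 0.21 and 0.57, while Plxnb3, which is not on the list, was at -0.34 and 0.38. In the rescue, Plxnb1 was at -0.14 and 0.15 and Plxnb2 at -0.10 and -0.03, so for both genes the knockdown pair lies above the rescue pair. Plxnb1 did not pass without the block (mean 0.48, SE 0.13, limma adjusted p = 0.143) and was the one member called higher with it (adjusted p = 0.0386). Plxnc1, the receptor of Sema7a, had rescue values of -0.96 and -0.54 that overlap its knockdown values. Of the neuropilins, the ligand-binding partners of plexin-A receptors, Nrp1 was at -0.18 and -0.99, a spread of repeats wider than its mean of -0.59, and Nrp2 at -0.18 and 0.04.

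All 5 listed ephrins, the membrane-anchored ligands of Eph receptors, were below control in both knockdown repeats, as were 31.1% of all genes. Of the ephrins not on the list, Efna1 (0.25 and 0.66) and Efna4 (0.11 and 0.31) were above it, and Efna2 was at 0.09 and -0.48. The means of the 5 listed ephrins lay within -0.61 to -0.48, and 0 passed without the block. Efna3, Efna5, Efnb1 and Efnb3 were lower with it, as were 3.48% of all genes. Efnb3 had the lowest mean, from -0.36 and -0.86 in the knockdown, beside -0.35 and -0.64 in the rescue, and its groups overlap. Efna3 had one of the smallest, from -0.20 and -0.76, beside 0.46 and -0.08 in the rescue, without overlap.

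The EphA receptors, which bind mainly the GPI-anchored ephrin-A ligands, held the member with the smallest adjusted p. Epha3 stood at 0.496 and 0.333 of control in the knockdown repeats and at 1.40 and 1.13 in the rescue repeats. Both knockdown samples are low, both rescue samples are a little above control, and the groups do not overlap. Epha3 fell by 1.30 on the log2 scale in the knockdown (SE 0.16, limma adjusted p = 0.0281). Its listed relatives Epha4 to Epha7 had the same sign at smaller size, with knockdown means of -0.55 for Epha4, -0.32 for Epha5, -0.89 for Epha6 and -0.71 for Epha7, none past the threshold without the block. Epha8 was at 0.18 and 0.27 in the knockdown and at 0.22 and 0.08 in the rescue. The EphA receptors not on the list, Epha1, Epha2 and Epha10, had knockdown means above control as well, at 0.10, 0.15 and 0.36. Among the EphB receptors, Ephb6, whose kinase domain is inactive, was at -0.60 and -0.50 in the knockdown and at -0.00 and 0.14 in the rescue. Ephb1 was at 0.27 and 0.12 in the knockdown, and Ephb3 had repeats of opposite sign, at -0.59 and 0.27.

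**Figure D3:**
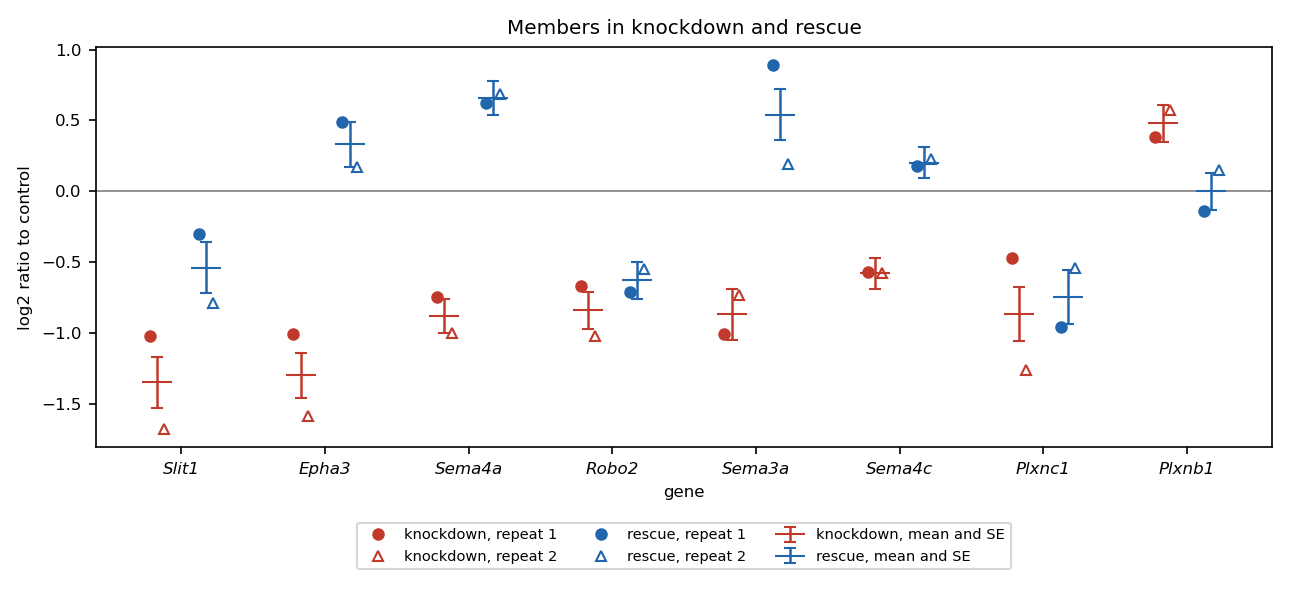
Log2 ratio to control (vertical axis) of selected members in the 2 knockdown and the 2 rescue samples; points are samples, and bars are the group mean and its standard error from limma. Sema4a, Sema3a, Sema4c and Epha3 lie below control in the knockdown and above it in the rescue. Slit1, Robo2 and Plxnc1 lie below control in all 4 samples.

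Leaving out either rescue sample gives the same knockdown fit as the knockdown columns alone. With that fit the 3 calls in the knockdown were lost (limma adjusted p = 0.0711 for Epha3, 0.0728 for Slit1 and 0.111 for Sema4a). After quantile normalization those of Slit1 (0.0581) and Sema4a (0.066) were lost, and that of Sema4a also without knockdown replicate 2 (0.0828).

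Low values were found among ligands and among receptors. On the mean, 43 members were below control, against 49.6% of all genes: 21 of the 29 measured ligands and 22 of the 27 measured receptors, with knockdown medians of -0.32 and -0.48. Both repeats were below control for 18 ligands and 17 receptors, and no test compared these groups. The repeats were not equally strong: 35 members (62.5%) were lower in repeat 2 than in repeat 1, against 46.7% of all genes. The log2 values of all genes also spread most in knockdown repeat 2 (SD over genes 0.3486, against 0.2319 to 0.2432 in the other columns), and the targeted transcripts were lower in repeat 2 as well. Calm2 was at 0.473 and 0.304 of control in the knockdown repeats and at 0.559 and 0.411 in the rescue repeats, and Calm3 at 0.401 and 0.189, and 0.188 and 0.0853. These transcripts stayed low in the rescue, where the added virus carries calmodulin by design. Calm3 was lower in the rescue than in the knockdown, with knockdown minus rescue at 1.09 and 1.15 on the log2 scale. That difference passed with the block (limma adjusted p = 0.0169) and not without it (0.613).

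**Figure D4:**
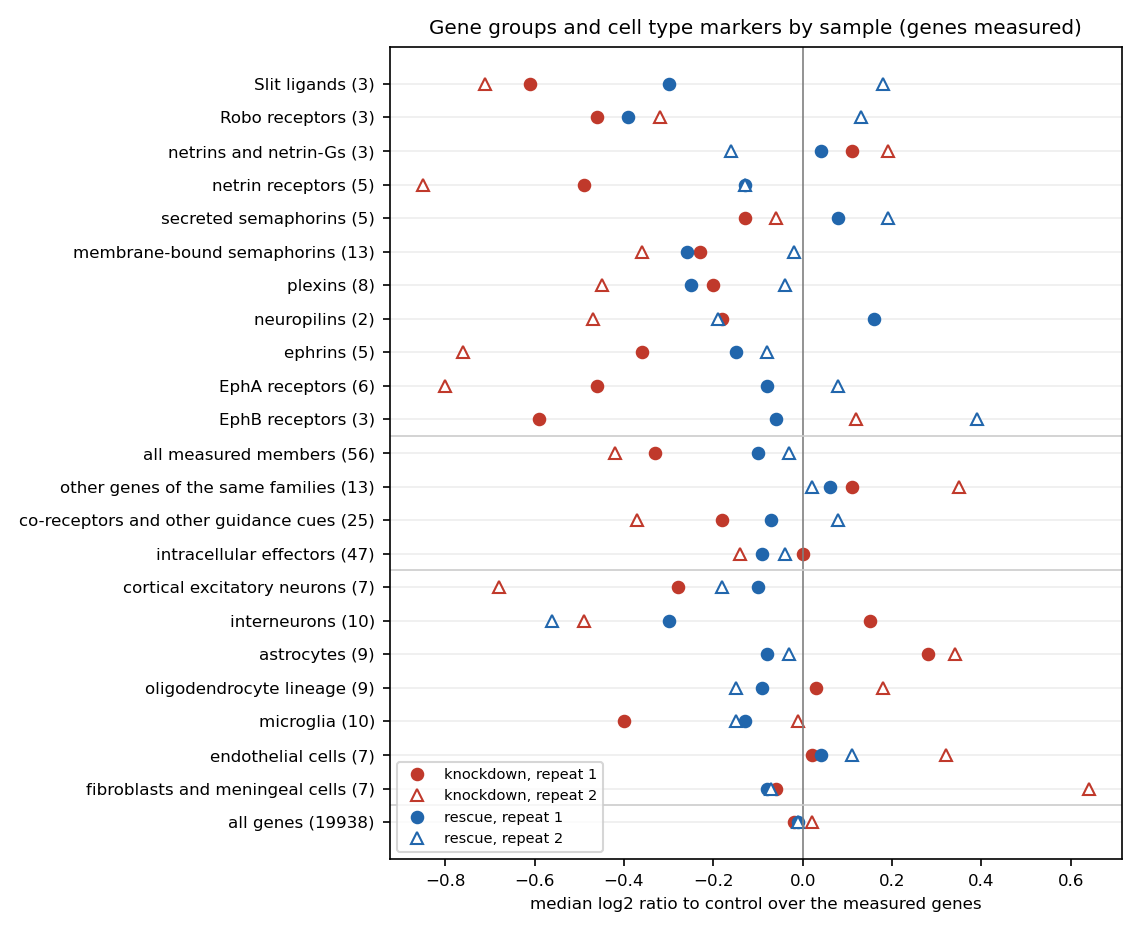
Median log2 ratio to control (horizontal axis) of each family of members, of related gene lists and of cell type markers in each of the 4 samples, with the number of measured genes in brackets. Ephrins and EphA receptors stand at -0.36 and -0.76, and at -0.46 and -0.80, in the knockdown repeats, while the other genes of the same families stand at 0.11 and 0.35.

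The second comparison set the rescue against control. No member passed in limma, with or without the block (0.0% and 0.125% of all genes), and 15 of the 56 were under an unadjusted p of 0.05, against 7.44% of all genes. The median member was at -0.10 and -0.03 in the repeats and -0.06 on the group mean, beside -0.01 for all genes. Both rescue values were below control for 23 members and above it for 11, against 29.8% and 24.9% of all genes. Sema4a was the one member at least 1.5-fold above control in both rescue repeats (0.16% of all genes), with a mean of 0.66 (SE 0.12, limma adjusted p = 0.464, and 0.0718 with the block). The lowest members were Plxnc1 and Robo2, with means of -0.75 and -0.63 (limma adjusted p = 0.486 and 0.464). With the spread taken from the rescue columns alone, these 3 genes (Plxnc1, Robo2 and Sema4a) passed in limma. That fit called 176 of all 19938 genes, against 0 in the main fit. Plxna3, a plexin-A receptor, was at -0.39 in both rescue repeats, and at -0.02 and -0.32 in the knockdown.

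The third comparison set the knockdown against the rescue, which carry the same shRNAs and share the control array of a repeat, so that the control drops out of the difference within a repeat. The fit without the block does not use this pairing, and the fit with the block does. Of the 56 members, 1 was lower in the knockdown past the threshold in limma (0.0301% of all genes) and 0 were higher (0.0401%). With the block 3 were lower, Sema3a, Sema4a and Epha3 (0.431% of all genes). At an unadjusted p under 0.05, 21 members differed, against 6.82% of all genes. At least 1.5-fold in both repeats, 7 were lower (12.5%, against 0.958%): Slit1, Sema3a, Sema4a, Sema4c, Efna3, Epha3 and Ephb6. Both knockdown values lay below both rescue values for 21 members (37.5%), against 15.1% of all genes, and above both for 5, Ntn4, Sema4b, Plxna3, Plxnb1 and Plxnb2, against 16.5%. The median difference over the members was -0.15 in repeat 1 and -0.36 in repeat 2, and -0.21 on the means, beside 0.02 for all genes. It was -0.06 after quantile normalization and -0.11 with the columns scaled to equal spread.

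Sema4a was lower in the knockdown than in the rescue by 1.37 and 1.70 on the log2 scale in the repeats. The mean difference was -1.54 (SE 0.17, limma adjusted p = 0.0499, and 0.00757 with the block). Epha3 had the largest mean difference, at -1.63 (SE 0.23), which missed the threshold without the block (limma adjusted p = 0.0748) and passed with it (adjusted p = 0.0057). Sema3a differed by -1.90 in repeat 1 and by -0.92 in repeat 2, with a mean of -1.41 (SE 0.25, limma adjusted p = 0.152, and 0.038 with the block). Sema4c and Slit1 followed, with differences of -0.78 and -0.81 that passed neither fit (limma adjusted p = 0.231 and 0.491). Sema6d, at -0.05 and 0.43 in the knockdown and at -0.15 and 0.23 in the rescue, was among the 5 ranked highest, but its groups overlap. The Sema4a call was lost when the columns were median-centred (adjusted p = 0.0504, limma), quantile-normalized (0.0753), or fitted without rescue replicate 1 (0.349) or 2 (0.412).

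**Figure D5:**
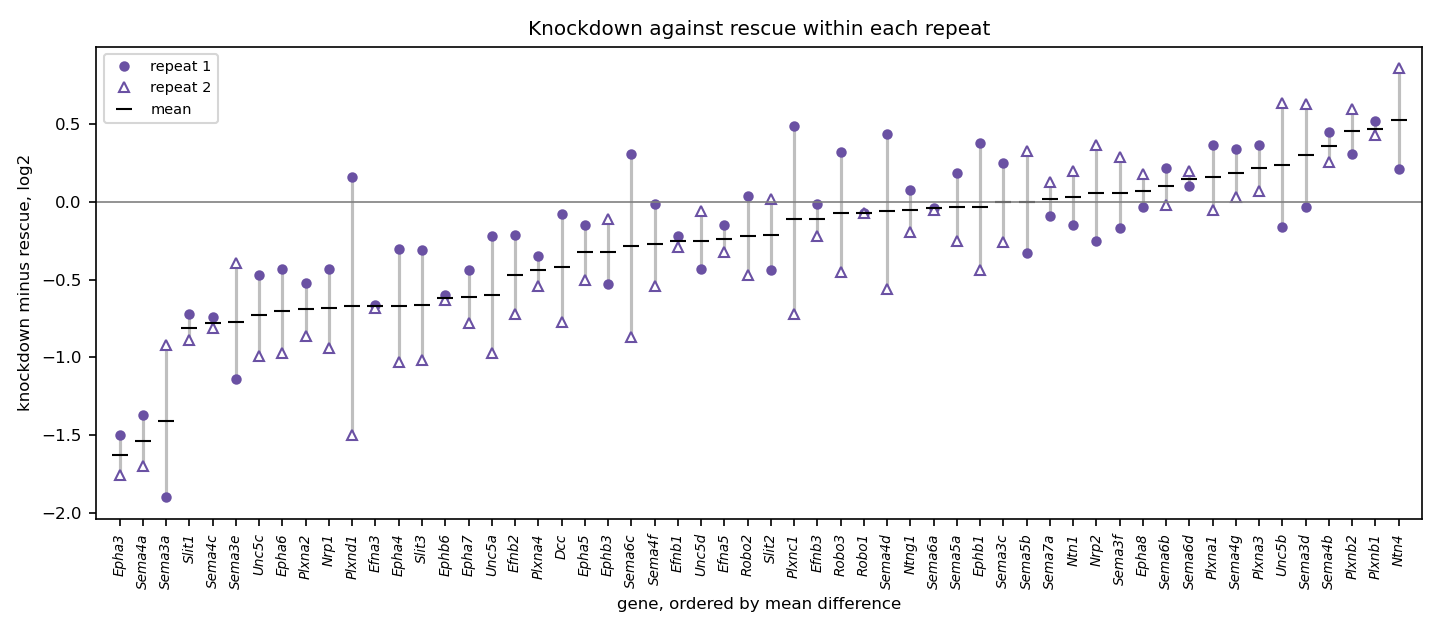
Difference of log2 ratios, knockdown minus rescue (vertical axis), for each member (horizontal axis, ordered by the mean). Circles are repeat 1, triangles repeat 2 and dashes the mean. Epha3 and Sema4a have the lowest mean differences, at -1.63 and -1.54, and Ntn4 the highest, at 0.53.

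Knockdown repeats were both below control and rescue repeats both above it for 6 members, Sema3a, Sema3e, Sema4a, Sema4c, Plxna2 and Epha3 (10.7%, against 4.45% of all genes). The reverse held for Ntn4, Sema4b and Plxnb2 (5.36%, against 4.42%), a share close to that of all genes.

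Some members are neighbours in the RefSeq gene order. Robo1 and Robo2 lie next to each other, with 12 protein-coding genes between Robo1 and Epha3 and 4 between Epha3 and Epha6. Their knockdown means were -0.19, -0.84, -1.30 and -0.89 for Robo1, Robo2, Epha3 and Epha6. Sema3d and Sema3a are adjacent too, and their knockdown means of -0.08 and -0.87 lie apart.

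Genes that work with these ligands and receptors were followed from separate lists. Of 25 co-receptors and other guidance cues, 1 passed in the knockdown, and it was higher, as were 0.135% of all genes. Cntn2, an axonal adhesion molecule of the immunoglobulin family, was at 1.35 and 0.91 in the knockdown and at 0.08 and -0.31 in the rescue, without overlap, and rose by 1.13 on the log2 scale (SE 0.15, limma adjusted p = 0.0397). That call was lost after quantile normalization (limma adjusted p = 0.0954), with columns scaled to equal spread (0.0646) and with the knockdown columns alone (0.0728). The list's median was -0.23, and 17 of the 25 lay below control on the mean, against 49.6% of all genes. With the block, Cntn2 was higher in the knockdown, as were 1.91% of all genes. Met, Lrrc4c, Islr2 and Flrt1 were lower with it (limma adjusted p = 0.0139, 0.0321, 0.0221 and 0.0479), as were 3.48% of all genes. Met, the receptor of hepatocyte growth factor, was at -1.10 and -1.94 in the knockdown and at -1.21 and -0.37 in the rescue (limma adjusted p = 0.0548, and 0.0139 with the block). Lrrc4c, the postsynaptic partner of Ntng1, was at -0.45 and -0.58 in the knockdown and at 0.70 and 0.43 in the rescue, and its difference passed with the block (adjusted p = 0.021, and 0.126 without it, limma).

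Of the 47 measured intracellular effectors of guidance receptors, 0 passed in the knockdown without the block and 5 with it. Crmp1, Dpysl5, Mical2 and Chn1 were lower (8.51%, against 3.48% of all genes) and Limk1 was higher (2.13%, against 1.91%). The median was -0.08. Limk1, the kinase that inactivates cofilin, was at 0.62 and 0.65 in the knockdown and at -0.16 and -0.58 in the rescue (limma adjusted p = 0.0942 against control). Mical2, an enzyme that oxidises actin, was at -0.63 and -0.49 against 0.08 and 0.23 (limma adjusted p = 0.0939). Both genes have knockdown and rescue pairs that do not overlap. Rhoa, Rac1 and Cdc42, the small GTPases on which these receptors converge, had knockdown means of 0.25, -0.03 and 0.22.

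Markers of cell types moved beside the guidance genes. The 7 measured markers of cortical excitatory neurons had medians of -0.28 and -0.68 in the knockdown and at -0.10 and -0.18 in the rescue. The 9 astrocyte markers had medians of 0.28 and 0.34 in the knockdown and at -0.08 and -0.03 in the rescue, and all 9 were above control on the knockdown mean, from 0.12 to 0.53. Knockdown medians were -0.13 for interneurons and microglia, 0.00 for the oligodendrocyte lineage, 0.10 for endothelial cells and 0.29 for fibroblasts and meningeal cells. Some of these hide unequal repeats: 0.15 and -0.49 for interneurons, -0.40 and -0.01 for microglia, and -0.06 and 0.64 for fibroblasts and meningeal cells. No marker passed in limma without the block. With it Slc17a7, Neurod6, Gad1 and Gad2 were lower, and Gja1, S100b and Sox9 higher, where 3.48% of all genes were lower and 1.91% higher. Gad1 was low in the rescue as well, at -0.84 and -0.91 (adjusted p = 0.0482 with the block, limma). Slc32a1, another interneuron marker, was at 0.36 and 0.34 in the knockdown. Neurod6, a transcription factor of excitatory neurons, was at -0.81 and -2.49 in the knockdown and at 0.90 and -0.18 in the rescue, the same order of groups as Epha3. The excitatory markers did not all share this order. Slc17a7 did, and Tbr1 narrowly (-0.28 and -0.78 against -0.27 and 0.01). The groups of Neurod2, Cux2 and Bcl11b overlap, and Fezf2 had the reverse order (0.05 and -0.11 against -0.50 and -0.20). Ratios carry no level, so the presence of neurons or of another type cannot be read from them, and in bulk RNA fewer cells of a type and less RNA per cell cannot be told apart. The part of cell makeup in the low guidance genes was not tested.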

How the data were processed

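Total RNA from infected cortical cultures was hybridised to Affymetrix mouse Gene ST arrays. For each sample the authors deposited linear ratios, 1 per probe set, with the same-day control array as denominator, per the labels and design text. Background correction, array normalization and genome build are not given in these labels or headers, the sources used here. Without intensities, probe sets near background cannot be told from bright ones, and precision is limited by the number of arrays. The median ratio of a column lay between 0.9952 and 1.006.

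Of 35399 probe sets, 21789 had 1 gene symbol in the platform annotation, 1621 several, and 11989 were not listed. Ratios were put on the log2 scale without further centring and averaged per symbol, giving 19938 genes. Tests used limma 3.58.1 (R 4.3.3), with a coefficient per group and no intercept, 2 residual and 6.11 prior degrees of freedom shared by all 4 columns, two-sided, and adjusted by the Benjamini-Hochberg method over all genes at 0.05. The code was tested on simulated data.

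Samples with the same number share a day in the labels and are therefore paired. Their deviations from the group means correlated at 0.305 across genes. The model was also run with repeat as a block. Other alternatives were median centring, quantile normalization, equal spread of columns, the median of probe sets, every probe set, robust moderation, predicted genes left out, own columns only, and each sample left out.

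The members and lists were chosen with earlier results of these data known. Values in every sample are given for members past the threshold, for the 5 ranked highest in each direction of each comparison by the smaller of their repeat values, and for the lowest and highest of each family. Other members named with values, and the CpG marking, were chosen after values were seen. Promoter windows are from RefSeq (GRCm38.p6), with the transcribed bases left out, and 49 of the 58 listed genes had one.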

Additional observations from a re-analysis of the deposited data

Results flagged for a closer look

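Sema4a, the membrane-bound semaphorin, differed between the knockdown and the rescue under the same reference, by -1.54 on the log2 scale (SE 0.17, limma adjusted p = 0.0499). It was below control in both knockdown samples and above control in both rescue samples. The adjusted p ran from 0.000396 to 0.412 over 11 alternatives, 5 of which were past the threshold.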

How the results depend on the processing

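Of 434 alternative values for the named members and Cntn2, 374 kept their direction and their side of the threshold, 34 newly passed it, 23 no longer passed, and 3 turned sign. Part of the 374 was fixed in advance, so their share does not measure robustness. The block and robust moderation leave the means unchanged, and leaving out a sample of 1 group cannot move the mean of the other. Some alternatives are the same fit counted again, and most named values were not past the threshold to begin with. With 1 sample left out, Sema3f in the knockdown ranged from -0.09 (without knockdown replicate 2) to 0.69. Sema6d in the knockdown minus rescue ranged from -0.09 (without knockdown replicate 2) to 0.39, and was -0.04 without rescue replicate 1. The 3 members called in limma for knockdown minus control became 24 with the replicate block, 1 after quantile normalization and 0 with the knockdown columns alone. Calls over all genes moved with them, from 61 to 1074, 20 and 12 in that order. Counts of calls with 1 sample left out also moved over all genes, and are not given because a group then has 1 sample. The members' knockdown median was -0.42 without knockdown replicate 1 and ranged from -0.42 to -0.33 with each sample left out in turn. For rescue minus control, 0 calls became 3 (Plxnc1, Robo2 and Sema4a) with the rescue columns alone, while calls over all genes went from 0 to 176. For knockdown minus rescue, the 1 call became 3 with the replicate block, 2 with equal spread of columns, and 0 with median centring, quantile normalization, the median of probe sets, robust moderation or every probe set. Over all genes the 14 calls of this comparison became 123 with the replicate block, 10 with equal spread of columns and 2 after quantile normalization. Fits that leave a group with 1 sample assume that it varies like the other group. Knockdown minus rescue with its own columns is the fit reported and gave no further value. Over 12 alternatives the adjusted p in the knockdown ran from 2.89e-05 to 0.0711 for Epha3 (9 past the threshold), 2.59e-05 to 0.0728 for Slit1 (8 past it), 0.00205 to 0.111 for Sema4a (7 past it) and 0.000661 to 0.0954 for Cntn2 (7 past it). For knockdown minus control, leaving out either rescue replicate repeats the fit of the knockdown columns alone. The 12 alternatives therefore count that fit 3 times. The cause of these moves was not tested. Signal over background could not be judged from ratios.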
